A study of Drosophila melanogaster with 6 samples.

Results

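The genes described here encode the subunits and accessory proteins of the vacuolar ATPase (V-ATPase). They were taken as every gene whose symbol in the array annotation starts with Vha followed by a digit, an A or a P. This gave 26 genes, matched by 27 probe sets, of 11982 genes with a probe set of 1 symbol. Vha16-1 had 2 probe sets and was represented by the one with the higher mean log2 signal. Of the 26 genes, 10 encode proteins of the V1 sector, 14 of the V0 sector, and VhaAC45 and VhaAC45RP are accessory. The catalytic A subunit was represented by Vha68-3 alone, since Vha68-1 and Vha68-2 were not analysed here.

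The V-ATPase is a rotary proton pump. Its V1 sector lies in the cytoplasm and hydrolyses ATP, and its V0 sector lies in the membrane and carries protons. The pump acidifies lysosomes and endosomes, and at the lysosome it also takes part in amino acid sensing by the TOR pathway. In the larval fat body, which stores nutrients and breaks down its own content by autophagy, acid lysosomes are needed for that breakdown. Many subunits have several gene copies in flies, and some of the second copies, among them Vha68-3 and VhaAC39-2, are known for expression in adult testis.

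RNA of larval fat body was compared between 3 delg mutant samples (delg613/Df(3R)ro80b) and 3 control samples (+/Df(3R)ro80b), each on 1 Affymetrix Drosophila Genome 2.0 array. Delg is an Ets transcription factor of the NRF-2/GABP family, delg613 is a stop codon allele, and Df(3R)ro80b is a deficiency that both genotypes carry in 1 copy, so that the control is heterozygous for it and not wild type. Each sample was a pool of 60 fat bodies. The labels give an age of 6 days to all 6 samples and use the same dissection text, which speaks of mutant larvae, for the controls too. The paper describes the array larvae as late in the last larval stage or as wandering. For other assays at a matched stage, it took control larvae at a younger age than mutant larvae. Equal age on the labels therefore need not mean equal stage, and stage may differ with genotype. The part of stage in the values below was not tested. In the pools of 60 fat bodies, fewer cells of a type and less RNA per cell cannot be told apart.

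The values are MAS5 signals, a linear intensity scale on which the authors set the trimmed mean of every array to 500. Log2 fold changes are mutant minus control and come, with standard errors (SE), 95% intervals and p-values adjusted over 18769 probe sets, from limma. A gene is said to have risen or fallen where the adjusted p was under 0.05. With 3 arrays of each genotype the precision is limited, and an exact permutation test of 3 against 3 samples cannot go below 0.1. Ets97D, the gene of Delg, had signals of 71.7, 87.1 and 91.9 in mutant replicates 1 to 3 and of 135, 122 and 213 in control replicates 1 to 3. This is a log2 fold change of -0.87 (SE 0.38), which did not pass the test (limma, adjusted p = 0.267).

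The fat body label was borne out by Lsp2, Fbp2, apolpp and ppl, which were bright on every array, and none of the 8 fat body markers passed the test in limma, where an unadjusted p under 0.05 was found for 0 with higher and 2 with lower values. Their summed signals were 267420 to 313771 in the mutant and 285307 to 354598 in the control. Not all of them were even: Fbp1, a receptor of storage proteins, was at 1103 in control replicate 2 and at 40320 to 65884 in the others, and FASN1 and Apoltp, genes of lipid synthesis and lipid transport, were lower in each mutant sample than in each control. Other markers differed between single samples. The 8 salivary gland markers summed to 16402 in control replicate 2 and to 199678 to 326885 in the other samples. In control replicate 2 the Sgs genes were at 2.53 to 231, while ng1 was at 7064 and ng3 at 9057. Both ng genes were lower in each mutant sample than in each control (log2 fold changes -2.74 and -1.03), but neither passed the test. The 7 midgut markers summed to 86842 in mutant replicate 1 and to 60.0 to 8750 in the others. Of 7 markers of the Malpighian tubule, an organ whose plasma membrane is rich in V-ATPase, Irk1, Irk3 and ZnT35C fell and Drip rose. ClC-a was also higher in each mutant sample (0.68) without passing, and of the 7 markers 4 were below 0 and 3 above. Their summed signals were 3303 to 3955 in the mutant and 5278 to 9355 in the control, of which Irk3 gave 597 to 847 and 2298 to 5072. Pxn and eater, 2 of 8 hemocyte markers, rose, and Hml and NimC1 were also higher in each mutant sample. PPO1 and PPO2 had log2 fold changes of -0.79 and -0.69 with overlapping samples, and of the 8 markers 5 were above 0 and 3 below. The summed signal of the 8 was 6553 to 7884 in the mutant and 11967 to 37739 in the control, and most of it came from Col4a1, a collagen gene, at 4131 to 5296 in the mutant and 8511 to 36789 in the control. Of the 6 tubule and hemocyte genes that passed, Irk3 alone did so with each sample left out, and none did in limma without trend (adjusted p from 0.0707 to 0.221) or in the methods' test (0.0823 to 0.218). The part of these cells in the values below was not tested.

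None of the 26 V-ATPase genes rose or fell in the delg mutant (limma, lowest adjusted p = 0.191). Across all genes, 4.45% rose and 3.75% fell. At an unadjusted p under 0.05, 0 genes were higher and 1, VhaAC39-2, was lower, beside 11.3% higher and 11.7% lower of all genes. The methods' test on the same log2 signals called 0 genes after adjustment and, before it, Vha26 in place of VhaAC39-2. Of the 26, 19 had a log2 fold change below 0, beside 6519 of all 11982 genes. The median of the 26 was -0.25, beside -0.09 over all genes. The signals of 2 genes, Vha55 and Vha26, were lower in each mutant sample than in each control sample, and those of 0 genes were higher in each. Of all genes, 15.6% lay lower in this way and 14.5% higher. At least 1.5-fold lower were 7 genes, and 0 were at least 1.5-fold higher, beside 27.5% and 21.6% of all genes. The medians of the V1 and V0 genes were -0.29 and -0.25.

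The genes lay in 2 classes of brightness, divided at a geometric mean signal of 500. The 12 brighter genes had signals of 1153 to 20374, and the 14 dimmer genes had signals of 2.93 to 403, so that no single signal of one class reached those of the other. The brighter class held 1 or 2 genes for each of the subunits B, C, D, E, F, G, a, c, c'' and d, and the accessory subunit VhaAC45. The dimmer class held further copies of D, F, a, c, c'' and d, and Vha68-3 and VhaAC45RP.

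Among the brighter V1 genes, Vha55 encodes the B subunit, which binds nucleotide beside the catalytic A subunit. Its signals were 3406, 3118 and 4341 in the mutant and 4413, 4454 and 4719 in the control. Mutant replicates 1 and 2 were clearly below the controls, while mutant replicate 3 lay just under the lowest of them. The log2 fold change was -0.34 (SE 0.18, 95% interval -0.76 to 0.09) and did not pass the test (limma, adjusted p = 0.385).

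Vha36-1 and Vha14-1 encode subunits D and F, the central shaft that turns when ATP is hydrolysed. Vha36-1 had signals of 2472, 2074 and 2899 in the mutant and 2818, 3452 and 3336 in the control. Only mutant replicate 3 reached into the control values, and the log2 fold change of -0.38 (SE 0.19, 95% interval -0.82 to 0.07, adjusted p = 0.347) was the lowest of the brighter class. Vha14-1 had signals of 3555, 1827 and 2463 in the mutant and 3139, 2201 and 2290 in the control, with mutant replicate 1 above the controls, replicate 2 below them and replicate 3 among them. Its log2 fold change was 0.01 (SE 0.27).

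Subunits E and G form the outer stalks that hold the pump's head still, and they are encoded by Vha26 and Vha13. Vha26 was measured at 10630, 10008 and 11439 in the mutant and at 12837, 12982 and 11885 in the control. The groups did not overlap, but the highest mutant and the lowest control lay close together. The log2 fold change was -0.23 (SE 0.17, 95% interval -0.63 to 0.16, limma, adjusted p = 0.537). For Vha13 the signals were 4672, 2642 and 3667 in the mutant and 3949, 5437 and 3334 in the control, with a wide overlap and a log2 fold change of -0.22 (SE 0.27).

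Vha44 encodes subunit C, which joins the outer stalks to the membrane sector and leaves the complex when V1 and V0 come apart. Its signals of 1481, 1153 and 1397 in the mutant enclosed those of 1415, 1240 and 1314 in the control. With a log2 fold change of 0.02 (SE 0.18) the 95% interval ran from -0.40 to 0.43.

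In the membrane sector, subunit a holds the half-channels for protons and sets which membrane the pump is in. Vha100-2 had signals of 2824, 1968 and 2696 in the mutant and 3120, 3468 and 2355 in the control. These overlapped, and the log2 fold change was -0.26 (SE 0.22, 95% interval -0.77 to 0.26). Vha100-1, known from synapses of the nervous system, had the highest value of the brighter class. It was measured at 2143, 2925 and 2164 in the mutant and at 2825, 1247 and 1973 in the control, where control replicate 2 was the lowest of all 6. The log2 fold change was 0.32 (SE 0.30, 95% interval -0.37 to 1.01), and without control replicate 2 it was 0.01.

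Subunits c and c'' make up the ring of proteolipids that carries the protons. Vha16-1, the main c gene, had signals of 16989, 17564 and 15974 in the mutant and 20374, 17127 and 16130 in the control. Apart from the higher control replicate 1, the samples of both genotypes covered the same range, and the log2 fold change was -0.08 (SE 0.19). Its second probe set, which was not used for the gene, gave 8933, 7990 and 8305 in the mutant and 10929, 10983 and 10030 in the control. Here each mutant sample was below each control sample, with a log2 fold change of -0.34 (SE 0.17, limma, adjusted p = 0.325), so that the 2 probe sets of Vha16-1 differed in overlap while neither passed the test.

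VhaPPA1-1, which encodes subunit c'', had signals of 5957, 5441 and 6291 in the mutant and 8199, 6093 and 7230 in the control. Mutant replicate 3 exceeded control replicate 2 and the others were in order of genotype. The log2 fold change was -0.27 (SE 0.18, 95% interval -0.70 to 0.15, adjusted p = 0.491). VhaAC39-1, which encodes the d subunit that couples the ring to the central shaft, gave 3318, 3200 and 3184 in the mutant and 4435, 3866 and 3300 in the control. The mutant samples were close to each other and to control replicate 3, and the log2 fold change was -0.25 (SE 0.18, adjusted p = 0.523).

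VhaAC45 is the accessory subunit that guides assembly and transport of the pump. Its signals were 6910, 5778 and 5725 in the mutant and 8147, 6509 and 5421 in the control. The lowest sample of all was control replicate 3 and the highest control replicate 1, and the log2 fold change was -0.11 (SE 0.21).

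**Figure D1:**
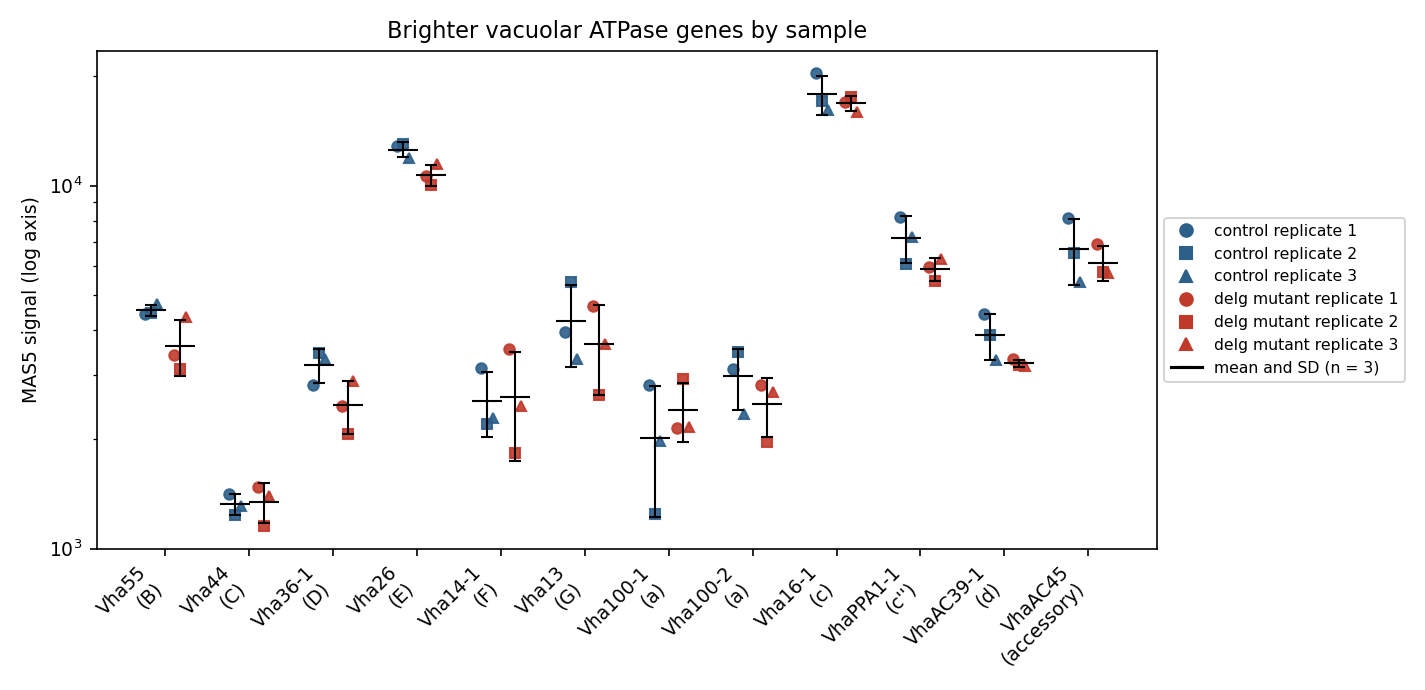
MAS5 signals (log axis) of the 12 brighter V-ATPase genes in each of the 3 control and 3 delg mutant samples, with the mean and SD of each genotype and the subunit in brackets. Samples of the 2 genotypes overlap for every gene except Vha55 and Vha26.

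The intervals of the brighter class were short. The SE of its 12 log2 fold changes had a median of 0.19, beside 0.23 for all 3392 genes with a geometric mean signal over 500. For 11 of the 12 the 95% interval lay within 2-fold in both directions, which held for 43.2% of all brighter genes, and the exception was Vha100-1. The lowest bound was -0.83, for Vha13. The median log2 fold change was -0.23, beside -0.01 for all brighter genes, of which 10.4% rose, 8.99% fell and 25.3% were lower in each mutant sample than in each control sample. Of the 12, 2 were lower in that way, and 0 were at least 1.5-fold different. Of all 3392 brighter genes, 740 were at least 1.5-fold lower and 777 at least 1.5-fold higher.

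Single samples took part in this median. Measured against each gene's mean over the 6 samples, the brighter class had median log2 deviations of -0.01, -0.23 and -0.02 in mutant replicates 1 to 3 and of 0.22, 0.08 and -0.10 in control replicates 1 to 3. Mutant replicate 2 was the lowest of all 6 samples for 8 of the 12 genes, and control replicate 1 was the highest control for 7. Of all 3392 brighter genes, the first held for 494 and the second for 1256. Control replicate 3 lay below mutant replicates 1 and 3, so that the class was not ordered by genotype over all samples. Without mutant replicate 2 the median was -0.10, and with each array centred on its median signal it was -0.08.

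**Figure D2:**
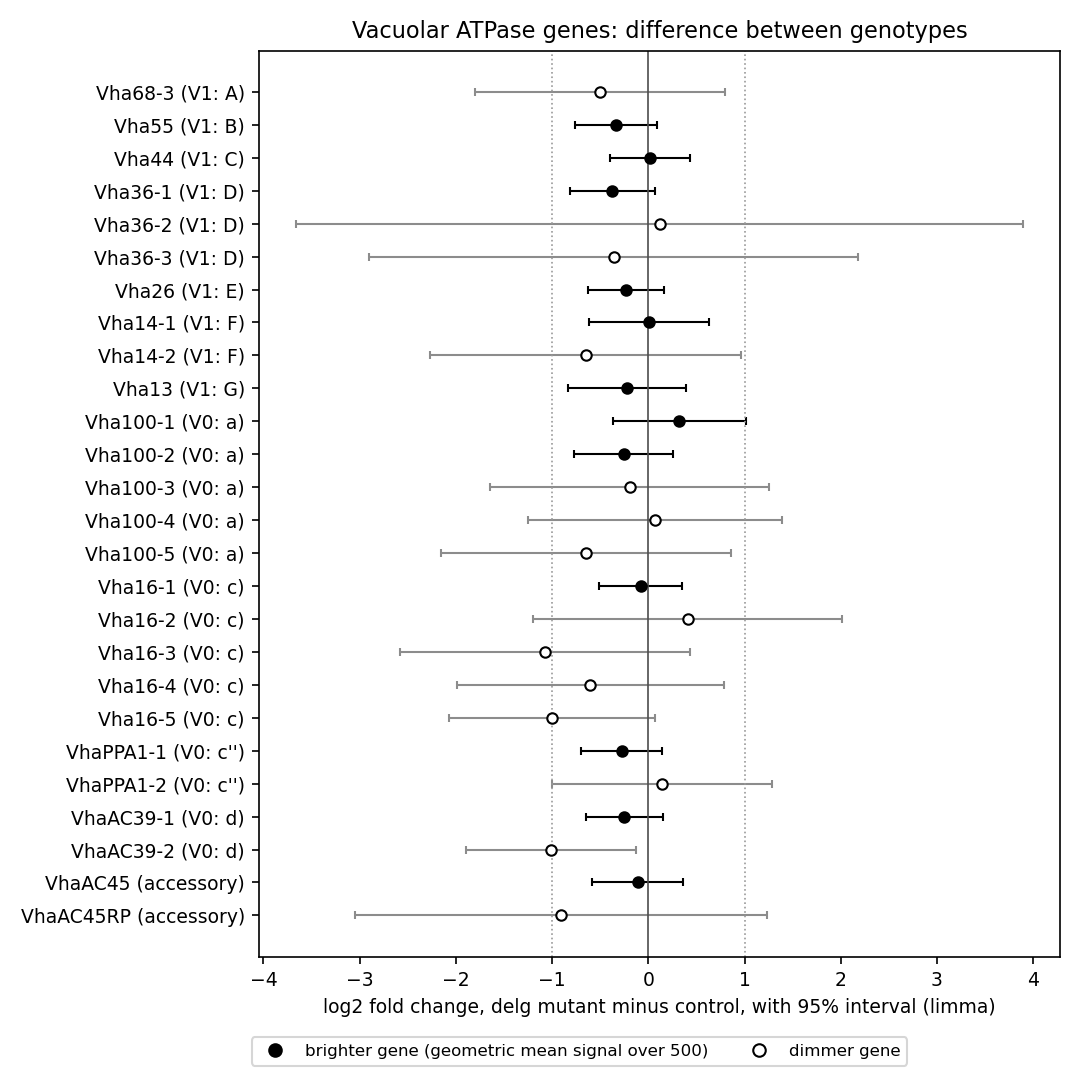
Log2 fold change (mutant minus control) with its 95% interval from limma for the 26 V-ATPase genes, ordered by sector and subunit, with filled points for the brighter and open points for the dimmer genes and dotted lines at 2-fold. The brighter genes lie between -0.38 and 0.32 with short intervals, and the interval of VhaAC39-2 alone leaves out 0.

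For the 14 dimmer genes the intervals were wide. Their SE had a median of 0.65 and ran up to 1.65, and 0 of the 14 intervals lay within 2-fold. The median log2 fold change was -0.55, beside -0.13 for all 8590 dimmer genes. The median of the class was -0.17 without mutant replicate 1 and -0.14 with 100 added to every signal. Both shifts were smaller than the SD between replicates of the class's median deviation, 0.48. All 7 genes at least 1.5-fold lower belonged to this class, while 2557 of all 8590 dimmer genes were at least 1.5-fold lower. Differences of about 2-fold, as for Vha16-3, Vha16-5 and VhaAC39-2, did not pass the test at these signals.

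Vha68-3, the A subunit copy, had signals of 84.9, 305 and 258 in the mutant and 326, 144 and 403 in the control. Mutant replicate 1 and control replicate 2 were the lowest of their genotypes and the groups overlapped, with a log2 fold change of -0.50 (SE 0.57, adjusted p = 0.719). VhaAC39-2, a second d subunit gene, was measured at 100, 226 and 136 in the mutant and at 306, 216 and 380 in the control. Mutant replicate 2 lay above control replicate 2. The log2 fold change was -1.01 (SE 0.39, 95% interval -1.89 to -0.13, limma, adjusted p = 0.191), and with array weights it was -1.22 and passed the test (adjusted p = 0.0492).

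The other copies of the c subunit, Vha16-2 to Vha16-5, were dim. Vha16-5 had signals of 83.9, 69.9 and 94.0 in the mutant and 175, 91.2 and 275 in the control, where control replicate 2 lay among the mutant samples. Its log2 fold change was -0.998 (SE 0.47, adjusted p = 0.298, and 0.0648 without control replicate 2). Vha16-3 was measured at 48.5, 105 and 30.6 in the mutant and 147, 54.1 and 183 in the control. Mutant replicate 2 lay above control replicate 2 and the other samples were in order of genotype. The log2 fold change was -1.08 (SE 0.66, adjusted p = 0.442). Vha16-4 gave -0.60 from 26.2 to 30.4 in the mutant and 29.4 to 55.1 in the control. Vha16-2, the direct neighbour of Vha16-3 with no coding gene between them, had a log2 fold change of the other sign, 0.41 (SE 0.70), from 32.4 to 51.8 in the mutant and 15.1 to 55.9 in the control.

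The dim copies of subunit a gave log2 fold changes of -0.19 for Vha100-3 (41.6 to 215 in the mutant, 77.3 to 153 in the control), 0.07 for Vha100-4 (30.8 to 68.7 and 39.5 to 46.8) and -0.65 for Vha100-5 (72.8 to 387 and 157 to 316). In the mutant, Vha100-5 was high in replicate 1 alone. Vha100-4 is the direct neighbour of the brighter Vha100-2.

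The remaining dimmer genes varied widely in their spread. Vha36-2, a second D subunit gene, had signals of 2.93, 158 and 90.1 in the mutant and 65.5, 5.26 and 94.5 in the control, with a very low sample in each genotype and a log2 fold change of 0.12 (SE 1.65). Vha36-3 gave -0.36 (SE 1.11) and Vha14-2, a copy of subunit F, gave -0.65 (SE 0.71). VhaPPA1-2, a copy of c'' separated from VhaPPA1-1 by 1 coding gene, gave 0.14 (SE 0.50). VhaAC45RP, which is related to the accessory subunit, gave -0.90 (SE 0.93) from 5.57 to 45.4 in the mutant and 23.3 to 50.7 in the control. Single samples carried some of these values, as the log2 fold change was -0.10 for Vha14-2 without mutant replicate 1, and without mutant replicate 2 it was -0.13 for VhaAC45RP and -0.23 for Vha100-5.

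Many of the dimmer genes were low in the same samples. Mutant replicate 1 was the lowest mutant for 7 of the 14 and control replicate 2 the lowest control for 11. Both held for 6 of the 14 (42.9%), namely Vha68-3, Vha36-2, Vha14-2, Vha100-3, VhaPPA1-2 and VhaAC39-2, and for 1 of the 12 brighter genes. Over all 8590 dimmer genes, mutant replicate 1 was the lowest mutant for 44.6% and control replicate 2 the lowest control for 42.2%. Both held for 23.3% of them. Median log2 deviations of the dimmer class were -0.64, 0.28 and -0.34 in mutant replicates 1 to 3 and 0.46, -0.24 and 0.72 in control replicates 1 to 3.

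Spermatocyte markers were low in the same samples. Both conditions held for 9 of these 14 markers (64.3%). Their summed signals were 2249, 6187 and 4875 in mutant replicates 1 to 3 and 6145, 3163 and 7909 in control replicates 1 to 3. betaTub85D, a tubulin of the male germ line, had signals of 756, 3019 and 2305 in the mutant and 3162, 997 and 3599 in the control. None of the 14 markers passed the test (limma, lowest adjusted p = 0.112). At an unadjusted p under 0.05 in limma, 5 were lower and 0 higher, beside 11.7% and 11.3% of all genes. The 6 further germ line markers went both ways. The gene aub, of the piRNA pathway, fell (-1.37, adjusted p = 0.0239), a call that was lost without any 1 of the mutant replicates or control replicate 3, while piwi, of the same pathway, was higher in each mutant sample (1.29, adjusted p = 0.128). The part of germ line tissue in the dimmer V-ATPase signals was not tested.

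**Figure D3:**
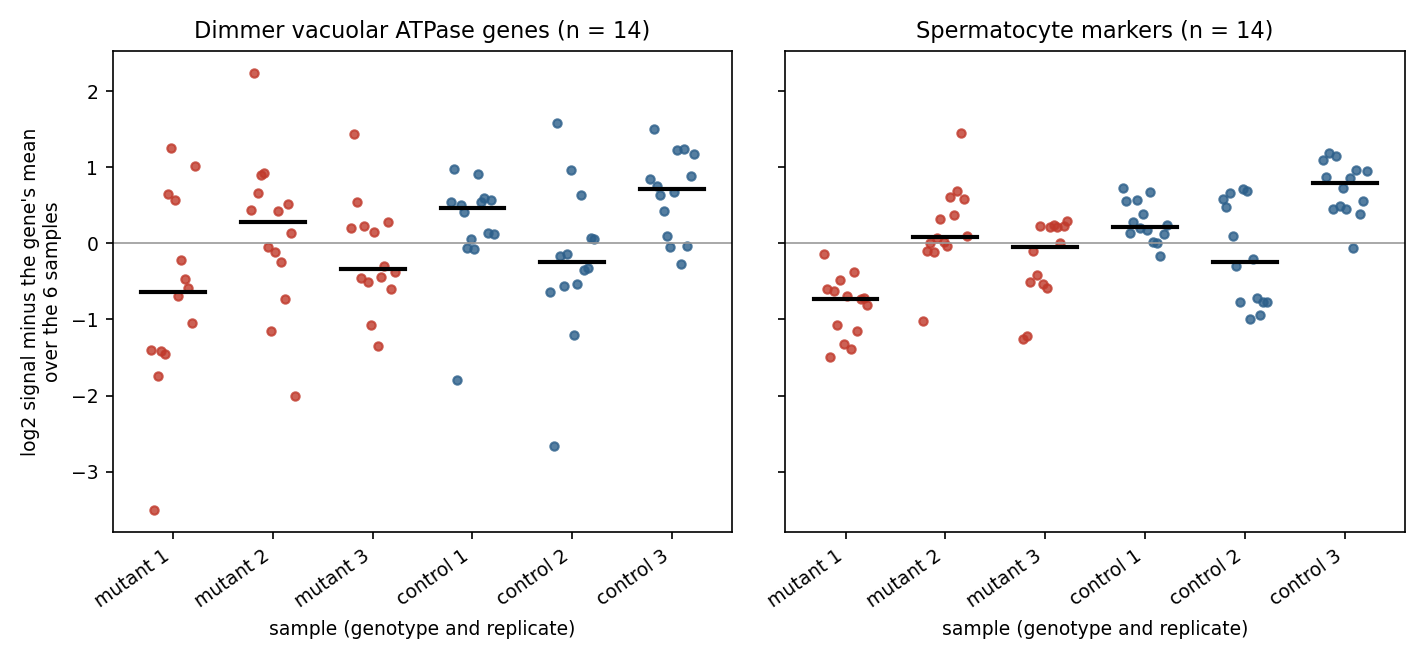
Log2 signal of each of the 14 dimmer V-ATPase genes (left) and 14 spermatocyte markers (right) minus the mean of that gene over the 6 samples, by sample, with a bar at the median. In both panels mutant replicate 1 has the lowest median (-0.64 for the V-ATPase genes) and control replicate 3 the highest (0.72).

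A further 6 V-ATPase genes, whose symbols do not match the rule, were measured with the same fit, and none passed the test (limma, 0 at an unadjusted p under 0.05). VhaSFD, which encodes the regulatory H subunit of V1, had signals of 4899, 4454 and 4761 in the mutant and 6384, 5240 and 6145 in the control. Each mutant sample was below each control sample, as for Vha55 and Vha26, with a log2 fold change of -0.33 (SE 0.17, adjusted p = 0.350). VhaM9.7-c, a small e subunit of V0, gave 914, 847 and 827 in the mutant and 668, 731 and 697 in the control. It lay the other way, higher in each mutant sample, with a log2 fold change of 0.30 (SE 0.18, adjusted p = 0.422). VhaM9.7-b, a second e subunit gene, gave 0.27 (SE 0.20) and ATP6AP2, the second accessory subunit, -0.12 (SE 0.21). VhaM9.7-a and VhaM9.7-d were dim, with log2 fold changes of 1.30 and -2.16 and SE of 1.16 and 1.04.

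Of 5 measured genes listed under V-ATPase assembly and regulation, none passed the test (limma, 1 higher and 0 lower at an unadjusted p below 0.05). The median log2 fold change of the list was -0.06. The 1 was CG6656, at 1.06 (SE 0.35, adjusted p = 0.126). It was on the list, but no role in V-ATPase assembly is given for it here, so its value is no result on assembly. Rbcn-3B, a component of the rabconnectin complex that brings V1 and V0 together, gave -0.06 (SE 0.25). Mitf, the fly transcription factor of lysosomal and V-ATPase genes, had signals of 133, 128 and 202 in the mutant and 136, 55.9 and 106 in the control. Mutant replicates 1 and 2 lay within the control range and replicate 3 above it, with a log2 fold change of 0.70 (SE 0.45, adjusted p = 0.465).

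At the lysosome, some values departed further from 0 than those of any brighter pump gene. Others, RagC-D and Lamp1 among them, lay within the range of the brighter pump genes, -0.38 to 0.32. Of 6 measured signalling partners 2 rose, the Ragulator genes Lamtor1 and Lamtor3. Over all genes 4.45% rose, and of those with a geometric mean signal over 500, 10.4%. Ragulator anchors the Rag GTPases to the lysosomal membrane beside the V-ATPase. Lamtor1 had signals of 2045, 1620 and 1391 in the mutant and 733, 664 and 718 in the control, and Lamtor3 had 1521, 1042 and 1395 in the mutant and 691, 354 and 522 in the control. The groups were well apart for both. The log2 fold changes were 1.24 (SE 0.20, limma, adjusted p = 0.0100) and 1.37 (SE 0.28, adjusted p = 0.0268). Lamtor4 gave 1.06 (adjusted p = 0.108), Lamtor5 0.21, RagC-D 0.04 and raptor -0.05, none past the test, and the median of the 6 was 0.64.

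Of 12 measured genes of lysosomal membrane proteins and enzymes, 11 had a log2 fold change above 0, beside 5463 of all 11982 genes. The median was 0.54, and 2 rose, beside 4.45% of all genes and 10.4% of those with a geometric mean signal over 500. The summed signals of the 12 were 131241 to 137407 in the mutant. In the control they were 49596 in replicate 2 and up to 102592 in the others. CtsL1, a cysteine protease of the cathepsin L type, had signals of 12525, 11823 and 13609 in the mutant and 3886, 4266 and 3052 in the control. All mutant samples lay far above all controls, and the log2 fold change was 1.77 (SE 0.19, limma, adjusted p = 0.00171). LManII, an alpha-mannosidase, gave 18212, 23206 and 20920 in the mutant and 9606, 3530 and 5598 in the control. The mutant samples were again above every control, with a log2 fold change of 1.85 (SE 0.34, adjusted p = 0.0168). Among the membrane proteins, Lamp1 gave 0.16 (SE 0.20, adjusted p = 0.743) and spin -0.17 (SE 0.21), and their groups overlapped.

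CtsL1 passed the test with each sample left out. Lamtor1 did not pass without mutant replicate 1 (adjusted p = 0.0525), and Lamtor3 and LManII did not pass without any 1 of the mutant replicates or without control replicate 3 (adjusted p up to 0.132 and 0.0856). Without trend in limma, none of the 4 passed (adjusted p from 0.0523 to 0.149), and in the methods' test with adjustment only CtsL1 did (0.0348). Control replicate 2 was the lowest control for Lamtor1, Lamtor3 and LManII, but not for CtsL1. Whether these lists differed from the pump genes was not tested.

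**Figure D4:**
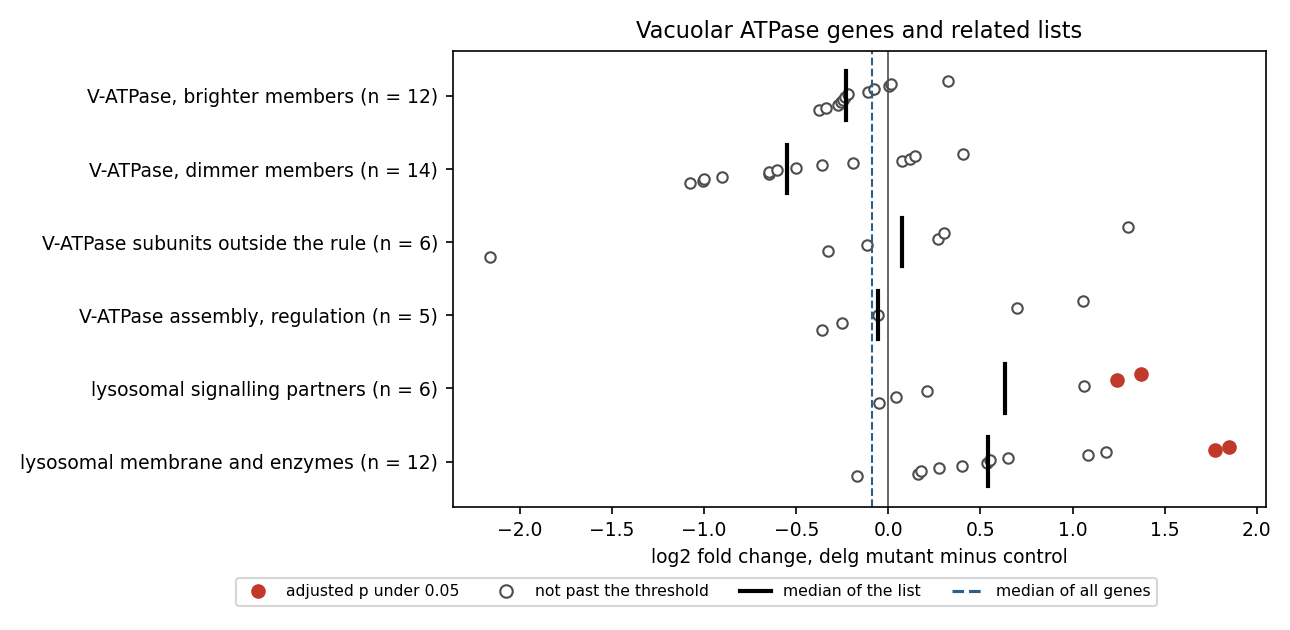
Log2 fold changes (mutant minus control) of the brighter and dimmer V-ATPase genes and of 4 related lists, 1 point for each gene, with a bar at the median of each list and a dashed line at the median of all genes. The 4 filled points, past an adjusted p of 0.05, are Lamtor1, Lamtor3, CtsL1 and LManII.

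The mitochondrial ATP synthase, a rotary enzyme of related build that runs in the other direction, gave a different picture in the same samples. Of its 15 measured genes 14 were below 0, with a median log2 fold change of -1.04. For 10 of the 15 each mutant sample was below each control sample, beside 2 of the 26 V-ATPase genes, both among the 12 brighter. Of all genes 15.6% lay lower in this way, and 25.3% of those with a geometric mean signal over 500. Of the 15 genes 2 fell, beside 3.75% of all genes. These were blw, which encodes the alpha subunit (-1.31, limma, adjusted p = 0.0187), and ATPsynbeta, which encodes the catalytic beta subunit (-1.38, adjusted p = 0.0116). Neither passed without any 1 of the mutant replicates or without control replicate 3 (adjusted p from 0.0508 to 0.0870), in limma without trend (0.128 and 0.102) or in the methods' test with adjustment (0.109 and 0.0786), and blw did not pass with centring (0.0567). The difference between the 2 enzymes was not tested.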

How the data were processed

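The authors hybridised biotin-labelled RNA, made with a two-cycle kit, to Affymetrix arrays. The deposited values are linear MAS5 signal intensities, made with GCOS 1.4 by the submitters' processing notes, on which a trimmed mean (2% at each end) of 500 was found on all 6 arrays; their median signals were 55.5 to 75.5. GeneSpring GX is named without settings, and the genome build is not given in the sources used here. No detection calls were used.

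From the deposited signals, log2 values were computed without offset or filter. Of 18952 probe sets, 183 Affymetrix controls were left out. The remaining 18769 were tested with limma 3.58.1 in R 4.3.3 (lmFit, then eBayes with trend; Benjamini-Hochberg adjustment, threshold 0.05), after a test on simulated data. Of these, 13647 had 1 symbol, 402 several and 4720 none. Array names gave the 26 genes, and updated names the same 26. Some probe sets, that of Vha55 among them, are marked by Affymetrix as matching several transcripts. Gene order comes from RefSeq, without coordinates.

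All members were named, with values per sample for the brightest gene of each subunit and for those without overlap; further genes given by sample, Vha100-1, VhaAC39-2, Vha16-3, Vha16-5 and Vha36-2 among them, were chosen after their values were seen. The members and lists were chosen with earlier results of these data known. The division at 500, the ATP synthase list and the alternatives for genes outside the members were chosen after seeing these data. So was the pair of samples for which shared low signals were counted. The alternatives were median centring, quantile normalization, 100 added before log2, keeping only the brighter probe sets by mean signal, the replicate number as a block, limma without trend, array weights, the methods' t-test, averaging the probe sets of a gene, and leaving out each sample. Replicate numbers are those of the sample titles, while the sample descriptions repeat 1 number within a genotype, and they were not taken as pairs, as the labels do not state it. A planned search of promoters for motifs was not run, since no sequence was used here.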

Additional observations from a re-analysis of the deposited data

How the results depend on the processing

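No V-ATPase gene passed the test under any alternative but array weights, which called 1, VhaAC39-2. The median of the 26 genes (-0.25) was -0.11 with each array centred on its median, which shifted the median of all genes from -0.09 to 0.06. That of the brighter genes (-0.23) was then -0.083, and -0.064 with array weights. Leaving out single samples gave -0.32 to -0.22 for all members, -0.27 to -0.10 for the brighter and -0.74 to -0.17 for the dimmer genes. With a replicate block 0 genes passed (lowest adjusted p = 0.312) and the median was -0.25, while over all genes 338 rose and 215 fell, against 533 and 449. Outside the members, LManII, blw, aub, Pxn and Irk1 were not called with the block (limma, adjusted p from 0.0510 to 0.138). Samples with the same number in their titles did not deviate together (residual correlations -0.04, -0.07 and -0.01). Over all genes centring gave 686 rises and 287 falls, limma without trend 106 and 57, array weights 852 and 857, and the adjusted t-test 137 and 107.

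Of the members, 15 kept their sign under every alternative that measured them. Centring turned Vha16-1 to 0.064 and VhaAC45 to 0.034. Quantile normalization turned Vha44 to -0.074, Vha14-1 to -0.026 and Vha16-1 to 0.16, and array weights turned Vha36-2 to -0.51, Vha100-4 to -0.11 and Vha16-2 to -0.071. With single samples left out, signs turned for Vha68-3 (-0.94 to 0.075), Vha44 (-0.057 to 0.12), Vha36-2 (-1.18 to 1.90), Vha36-3 (-1.35 to 0.42), Vha14-1 (-0.24 to 0.24), Vha100-3 (-0.70 to 0.48), Vha100-4 (-0.24 to 0.34), Vha16-1 (-0.15 to 0.018), Vha16-2 (-0.095 to 0.85), VhaPPA1-2 (-0.081 to 0.47) and VhaAC45 (-0.25 to 0.042). The cause was not tested. Low signals limit the dimmer genes, of which 7 remained in the alternative limited to brighter probe sets.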
